A study of Mus musculus with 12 samples.

Results

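The 5 genes of the WASH complex, Washc1, Washc2, Washc3, Washc4 and Washc5, were examined for binding of the transcription factor USF2 in mouse embryonic fibroblasts (MEFs), out of 21887 protein-coding genes. A USF2 peak was assigned to a member when its summit, the base with the strongest signal, lay within 1000 bp of either end of the annotated gene or inside the gene. The genes were chosen because the strongest of these peaks had already been seen in the same data, so calls and enrichments at the members are given as a description, without a test. Of the 5 members, 4 had a peak at a gene end in at least 1 list (4.05% of all protein-coding genes) and 1, Washc3, had none.

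The peaks came from ChIP-seq: crosslinked chromatin is sheared, the fragments bound by a protein are recovered with an antibody, and their DNA is sequenced to show where the protein sat. USF2 was precipitated from wild-type MEFs in normal culture (lists normal 1 and normal 2) and from wild-type MEFs after glucose starvation (lists starved 1 and starved 2). These are 4 of the 12 samples of the series, and the matching inputs and the H3K27ac libraries were not analysed here. The labels give neither the length of starvation nor whether the 2 libraries of a condition stem from different cultures, and their spread can be purely technical. Peak lists hold no expression values, so the labelled cell type was not checked.

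WASH is a protein complex on the surface of endosomes. It activates the ARP2/3 complex, which builds branched actin on the endosomal membrane, and so helps to sort cargo receptors into carriers that return them to the Golgi or the plasma membrane instead of the lysosome. It works together with retromer and with the CCC complex. USF2 belongs to the basic helix-loop-helix leucine zipper factors, whose dimers bind the E-box CACGTG.

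The promoter sequences of the members are shown to place this motif relative to the peaks. Each window runs from 250 bases before to 50 bases after an annotated start, and was taken from the RefSeq promoter table of GRCm38.p6. That table matched 4 of the 5 members with 5 windows. Washc5 has no window there. All 4 genes lie on the plus strand, the sequences read 5′ to 3′, and capitals mark each CACGTG. For Washc1 the window of the downstream of its 2 annotated starts is shown.
Washc2, chr6:116207783-116208082: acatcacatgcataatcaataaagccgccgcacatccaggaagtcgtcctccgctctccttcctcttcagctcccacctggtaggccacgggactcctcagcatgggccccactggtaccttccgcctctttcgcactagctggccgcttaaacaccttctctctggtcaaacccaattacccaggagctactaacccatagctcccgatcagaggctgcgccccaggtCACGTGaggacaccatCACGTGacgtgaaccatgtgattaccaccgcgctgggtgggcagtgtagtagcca
Washc4, chr10:83543691-83543990: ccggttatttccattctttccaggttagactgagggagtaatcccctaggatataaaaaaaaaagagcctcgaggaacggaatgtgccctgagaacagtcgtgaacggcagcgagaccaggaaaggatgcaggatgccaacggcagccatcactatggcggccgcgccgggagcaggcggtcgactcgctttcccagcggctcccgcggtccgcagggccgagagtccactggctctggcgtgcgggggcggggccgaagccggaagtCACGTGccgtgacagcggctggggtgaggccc
Washc1, chr17:66111395-66111694: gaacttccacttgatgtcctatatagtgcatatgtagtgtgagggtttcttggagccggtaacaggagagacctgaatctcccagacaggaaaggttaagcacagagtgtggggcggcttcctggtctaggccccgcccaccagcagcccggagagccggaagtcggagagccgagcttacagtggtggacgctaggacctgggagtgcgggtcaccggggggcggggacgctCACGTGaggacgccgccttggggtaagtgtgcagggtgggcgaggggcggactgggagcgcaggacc
Washc3, chr10:88200847-88201146: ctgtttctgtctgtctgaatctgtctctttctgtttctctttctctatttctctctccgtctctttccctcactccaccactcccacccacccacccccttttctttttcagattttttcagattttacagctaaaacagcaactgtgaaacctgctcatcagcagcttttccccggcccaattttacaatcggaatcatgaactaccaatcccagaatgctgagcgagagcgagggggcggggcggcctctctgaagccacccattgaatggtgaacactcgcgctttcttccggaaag

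Washc2 carried 2 CACGTG motifs, which began at -21 and -5 relative to its start. Washc4 and the downstream start of Washc1 carried 1 each, beginning at 18 and -17. The window of Washc3 and that of the upstream start of Washc1 carried none. The motif is palindromic, so both strands are covered by the same search. Of all 32851 promoter windows in the table, 7.15% held CACGTG, and 0.594% held it at least 2 times, as Washc2 did. The longer form GTCACGTG, searched on both strands, overlaps CACGTG and was found in the windows of Washc2 and Washc4 but not of Washc1. It occurred in 2.25% of all windows. Each of the 4 motifs at the members was part of TCACGTG on at least one strand, a form chosen after the sequences were seen, which 3.77% of all windows held. The loosest form, CANNTG, was present in 72.3% of all windows and in each of the 5 member windows, that of Washc3 included.

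The 4 lists differ in ways that bear on every value below. They held 1645 and 2124 peaks in normal and 825 and 1178 in starved culture on the assembled chromosomes, with minimum peak widths of 152 bp in normal and 306 bp in starved culture. Enrichments are therefore given side by side and ranked within a list, and no change between conditions was computed from them. The normal lists also resembled each other in detail: of the 1052 regions they shared, 44.8% had an identical start or end coordinate and 32.3% the same summit base. In the 543 regions shared by the starved lists these shares were 21.7% and 4.42%, and across conditions identical edges made up between 0.291% and 1.12%. Whether the lists of a condition share reads was not tested. Among the members, this concerned Washc4 alone, whose normal peaks had the same summit and 1 identical edge.

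Among the members, 4 of 5 had a gene-end peak in both normal lists, and 3 of 5 in both starved lists and in all 4 lists. Over all protein-coding genes these shares were 2.19% for both normal lists, 1.78% for both starved lists and 1.13% for all 4 lists. As the members were chosen from these calls, the shares are background only. With −log10 q of at least 5, or at least 10 reads at the summit, 2 members (Washc2 and Washc5) were left in both normal lists. The same 2 were left in all 4 lists. Over all genes these settings left 1.56% and 1.58% in both normal lists, and 0.786% and 0.941% in all 4. Without regions that have an identical edge in the lists of a condition, 3 members were left in both normal lists and 2 in all 4. The shares over all genes were then 1.51% and 0.763%. By list, 4 members were called in normal 1 (2.54% of all genes), 4 in normal 2 (2.68%), 3 in starved 1 (2.01%) and 4 in starved 2 (2.30%). All 15 peaks lay at a gene end, and no member had a further peak inside its body. The strongest peaks were those of Washc2 and Washc5, and those of Washc1 and Washc4 were weaker.

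Washc2 (also called FAM21) has a long flexible tail that binds retromer, actin capping protein and the CCC complex, and so links WASH to its partners on endosomes. Its region spanned chr6:116207725-116208298 in GRCm38, at the lower end of the gene (116208019 to 116262672). The fold enrichment, the caller's ratio of reads at the summit to local background with 1 read added to each, was 25.1 in normal 1, 17.5 in normal 2, 16.9 in starved 1 and 17.0 in starved 2. The peak ranked 5th of 1645, 25th of 2124, 9th of 825 and 6th of 1178 in these lists, so it was among the strongest sites of each. Its −log10 q, the caller's significance after correction for multiple tests, was 50.3, 32.7, 40.9 and 38.9 in the same order. Normal 1 was above the other 3 lists, but its counting interval (18.0 to 34.1) overlapped those of the others, which reached 22.4 to 24.4. This overlap neither shows nor excludes a difference between the lists. Among the 247 regions called in all 4 lists, this one was 3rd when ordered by the smallest enrichment over the lists.

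The summits at Washc2 fell on or beside its E-boxes. In normal 2 the summit lay inside the upstream motif, in normal 1 it lay 3 bp from it, and in starved 1 it lay 1 bp from the downstream motif. In starved 2 it lay 27 bp from the downstream motif. The upstream motif (116208012 to 116208017) sits in the gap between Washc2 and the lncRNA gene 9530062K07Rik, which is annotated on the opposite strand and ends at 116207993. The region lay within 1000 bp of an end of both genes (22 to 67 bp for the lncRNA gene), so it cannot be assigned to Washc2 alone.

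Washc5 (strumpellin) is a large structural subunit of the complex, known from mutations in hereditary spastic paraplegia. Its region spanned chr15:59373912-59374522, at the upper end of the gene (59331863 to 59374194). The fold enrichment was 20.7 in normal 1, 18.6 in normal 2, 15.6 in starved 1 and 17.5 in starved 2. These peaks ranked 10th, 16th, 14th and 4th within their lists, and −log10 q was 36.6, 31.4, 28.4 and 30.3. All 4 values were close to one another and their counting intervals overlapped, the lowest running from 10.7 to 22.0 and the highest from 14.1 to 29.4. As at Washc2, the overlap neither shows nor excludes a difference between the lists. The region was 7th of the 247 called in all 4 lists.

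The annotated span of Nsmce2, a SUMO ligase of the SMC5/6 DNA repair complex, begins 4 bp beyond that of Washc5. The summits lay 7, 23, 18 and 52 bp from the end of Washc5 and 11, 27, 14 and 48 bp from the end of Nsmce2 (normal 1 and 2, then starved 1 and 2). Both normal summits were inside Washc5 and both starved summits inside Nsmce2. The peak cannot be assigned to either gene alone, and no motif was searched at it.

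Washc4 (SWIP) is a further core subunit of the complex, altered in an inherited intellectual disability. Its region spanned chr10:83543747-83544205, near the lower end of the gene (83543620 to 83596473). The fold enrichment was 6.28 in both normal lists, 8.05 in starved 1 and 7.13 in starved 2, with ranks of 467, 687, 153 and 247 and −log10 q of 4.41, 4.60, 9.75 and 8.37. These are moderate sites, with 67.1% to 81.3% of the peaks of their lists below them. The starved peaks rested on 17 reads at the summit in each list and the normal peaks on 9 in each. Their 95% exact Poisson intervals, 9.90 to 27.2 and 4.12 to 17.1, overlap. The part of depth and peak width in these counts was not tested. The overlap therefore neither shows nor excludes a change between conditions. In order of the smallest enrichment this region was 140th of the 247 called in all 4 lists.

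The Washc4 summits were in different places in the 2 conditions, which was not tested. The 2 normal peaks have the same summit, 1 identical edge and 9 reads each, so they may not be separate observations. Minimum peak widths also differ between the conditions, and their part in the summit positions was not tested. Both starved summits lay inside the E-box (83543959 to 83543964), while both normal summits lay 63 bp from it, on the same base. The start in the promoter table (83543941) is 321 bp inside the gene span, so summits that were 340 to 407 bp from the gene end were 19 to 86 bp from this start. Over all promoter windows with CACGTG and a summit in them, the median distance between the 2 was 10.5 and 9 bp under normal culture, and 15 and 20.5 bp after starvation. In the normal lists 93.5% and 94.3% of such summits lay within 50 bp of the motif. The normal Washc4 summits lay beyond the end of their window, so they are not among these summits and cannot be ranked against them. The peak of normal 1 (83543978 to 83544130) did not reach the motif, and that of normal 2 (83543956 to 83544130) did. No gene other than Washc4 had an end within 1000 bp of these summits.

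Washc1 is the WASH protein itself, the subunit that activates ARP2/3. Its region spanned chr17:66111515-66111889, at the lower end of the gene (66111529 to 66120503). The fold enrichment was 6.90 in normal 1, 5.65 in normal 2 and 6.73 in starved 2, and starved 1 had no call. The ranks were 351, 848 and 290, and −log10 q was 5.58, 3.58 and 5.49. The peak of normal 2 was the weakest of all 15 member peaks by both measures, and it was just above the median enrichment of its list (5.46). The 3 peaks rested on 10, 8 and 10 reads at the summit, with intervals that reach from 3.45 to 18.4. At this depth a missing call, as in starved 1, does not show that USF2 was absent.

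The Washc1 peaks covered the downstream of its 2 annotated starts, the one with the E-box (66111628 to 66111633). Both normal peaks also covered the upstream start (66111546), so they cannot be placed at 1 start, while the peak of starved 2 did not reach it. The summits lay 2 bp from the motif in normal 1, 25 bp in normal 2 and 42 bp in starved 2. Relative to the downstream start (66111645) the summits were at -19, -42 and 30. No other annotated gene had an end within 1000 bp of them.

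Washc3 (CCDC53), a small coiled-coil subunit that joins the core of the complex, had no peak at either end of the gene or inside it (chromosome 10, 88201097 to 88324139) in any list, and 95.9% of all protein-coding genes likewise had none at a gene end. The nearest peak was 171703 bp away in normal 2, with an enrichment of 4.40. In the other 3 lists the nearest peaks were 502460 to 502640 bp away, and they lay beside Utp20, a gene of ribosome biogenesis. Washc3 was thus the member with neither a peak nor a CACGTG in its promoter window.

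**Figure D1:**
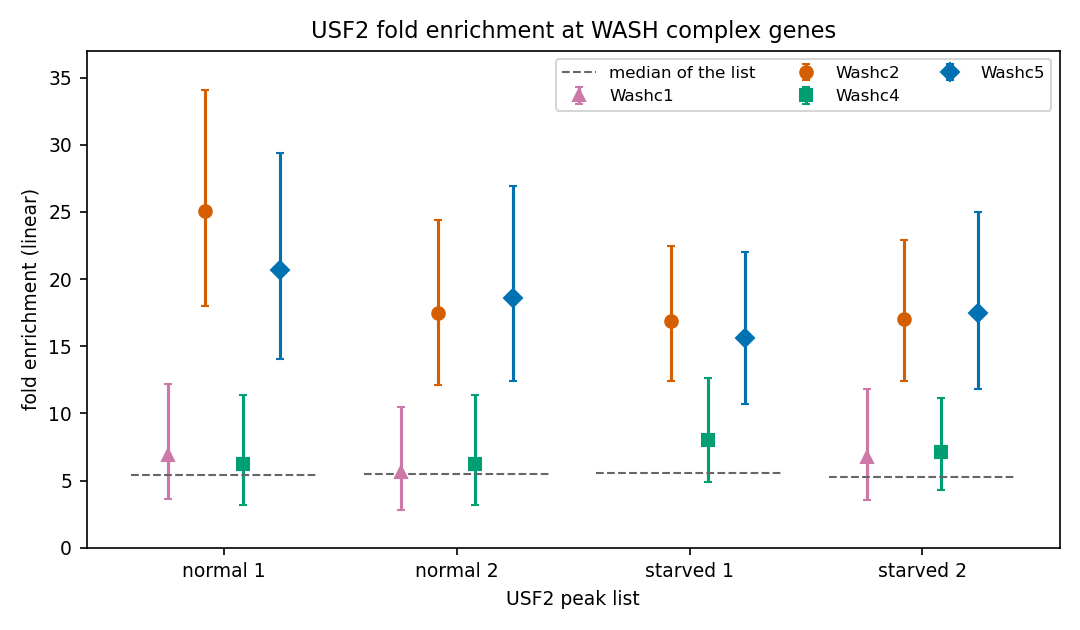
Fold enrichment (linear axis) of the USF2 peak at each WASH gene in the 4 lists, with 95% exact Poisson intervals for the counting error of the reads at the summit (local background held fixed), and dashed lines at the median of each list. Washc2 and Washc5 lie between 15.6 and 25.1 in every list, Washc1 and Washc4 between 5.65 and 8.05, and Washc3 has no point.

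Within each list, Washc2 and Washc5 had the highest values of the members, Washc2 first in normal 1 and starved 1 and Washc5 first in normal 2 and starved 2, and their counting intervals overlapped in 4 of 4 lists. Washc1 and Washc4 followed, and their intervals overlapped in each of the 3 lists that call both. In starved 1 the interval of Washc4 overlapped those of both Washc2 and Washc5, and in starved 2 that of Washc1 overlapped that of Washc5. These intervals cover counting error only and are a description, since the members were chosen on these values.

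**Figure D2:**
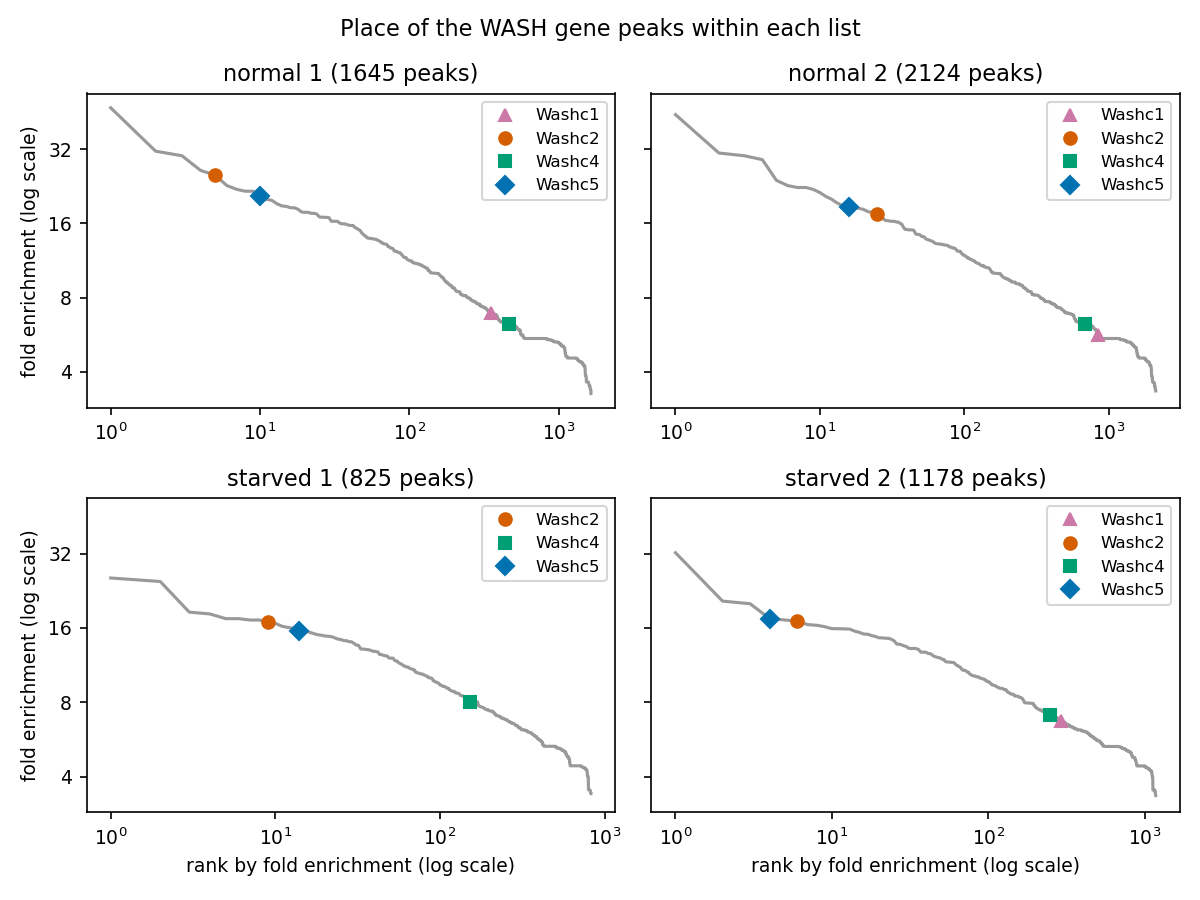
Fold enrichment against rank (both axes log scale) for all peaks of each list (grey line), with the WASH gene peaks marked. The peaks of Washc2 and Washc5 stand between ranks 4 and 25, and those of Washc1 and Washc4 between ranks 153 and 848.

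The read counts behind these ratios were recovered from the deposited enrichment and p-value of each peak. At Washc2 the summits held 39, 32, 45 and 42 reads over a local background of 0.593, 0.890, 1.73 and 1.52 reads. At Washc5 they held 29, 26, 30 and 28 reads over 0.451, 0.451, 0.988 and 0.661. The summits of these 2 genes thus stood on many more reads than the median peak of each list (5, 6, 8 and 6 reads). The starved libraries had the higher background at both genes, and the enrichment at Washc2 in starved 1 was below that in normal 1 although its summit held more reads. Peaks of the starved lists are wider, and the part of width and depth in these counts was not tested.

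**Figure D3:**
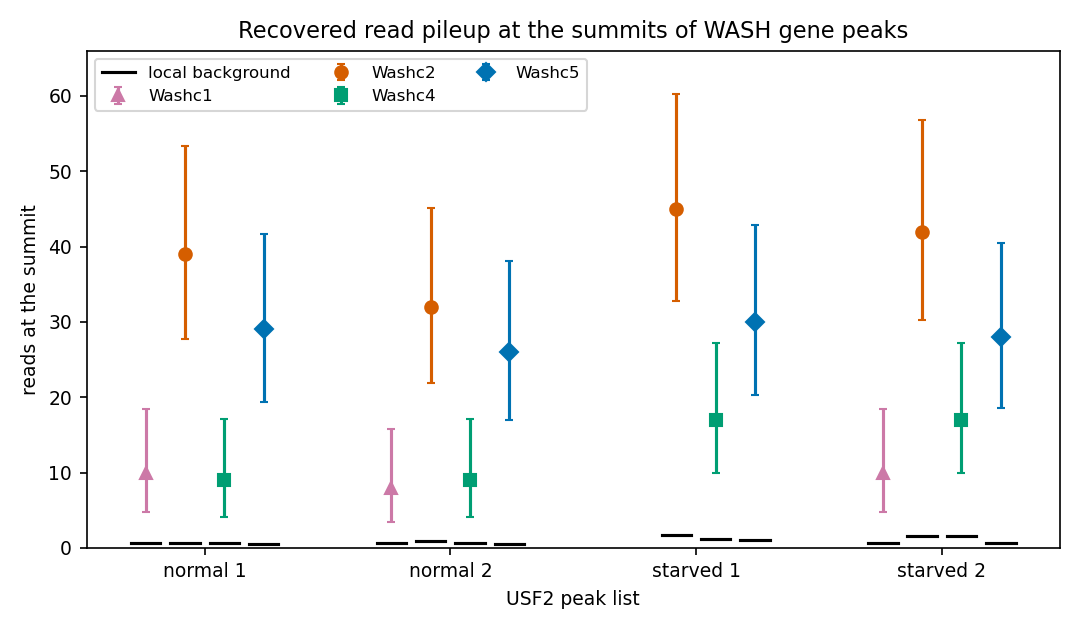
Reads at the summit of each WASH gene peak (points, with 95% exact Poisson intervals) and the local background under it (black bars), by list. Washc2 stands on 32 to 45 reads and Washc5 on 26 to 30, against 8 to 17 for Washc1 and Washc4.

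**Figure D4:**
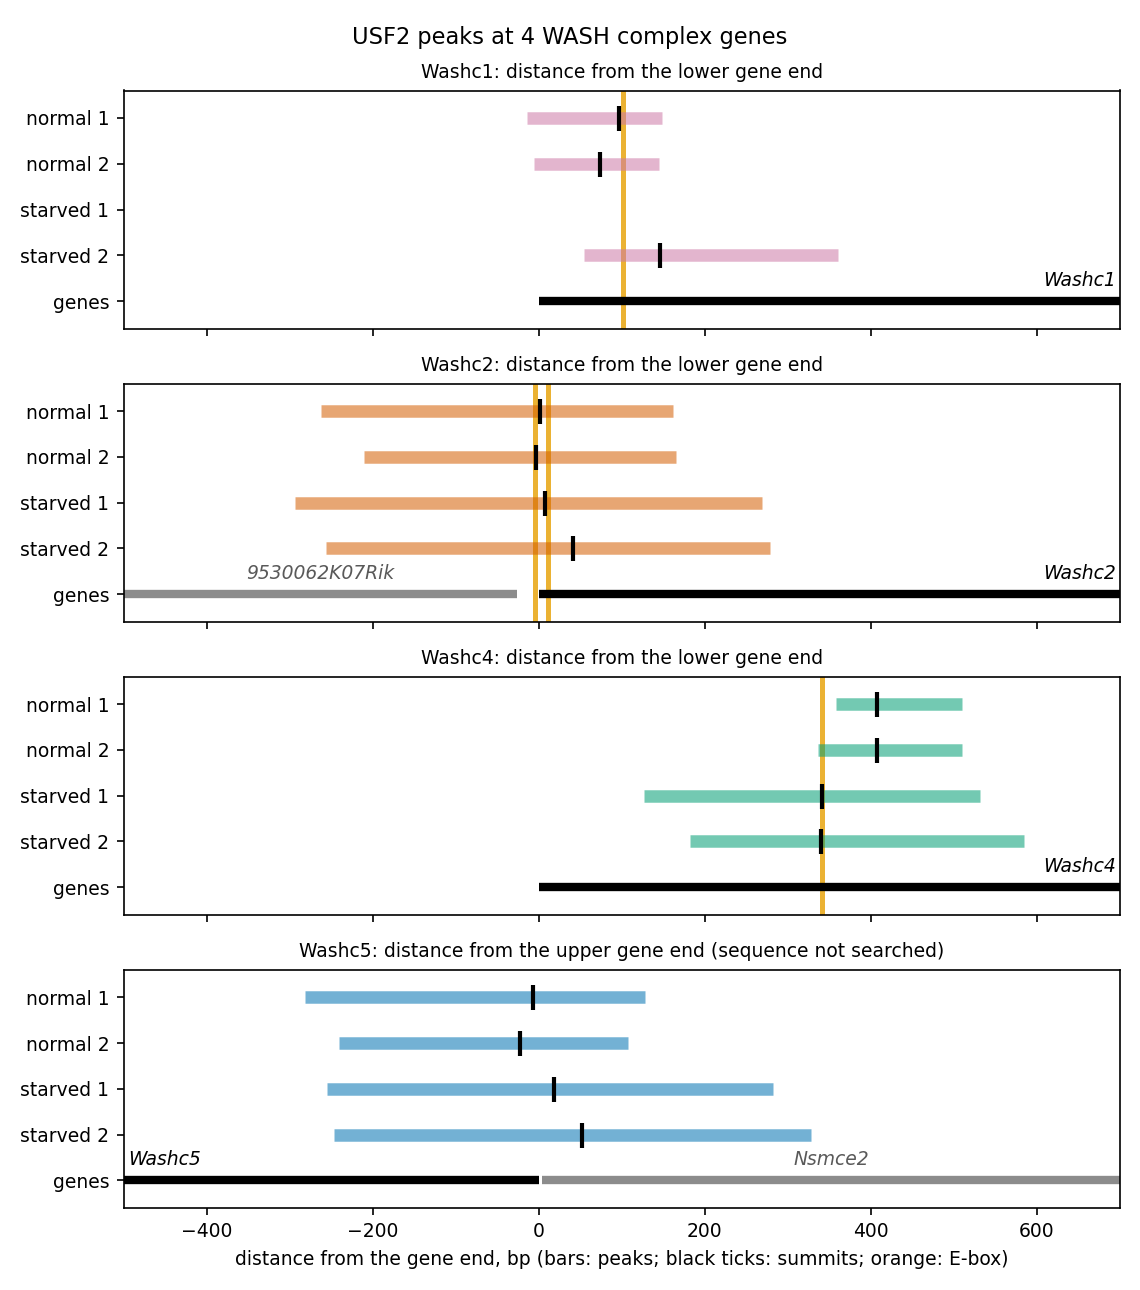
USF2 peaks (bars) and summits (black ticks) in each list, by distance in bp from the gene end, with E-boxes of the promoter windows in orange and annotated genes below. Summits at Washc2 fall within 27 bp of an E-box, both starved summits at Washc4 fall on it, and the peaks at Washc5 straddle the gap to Nsmce2.

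The distance rule had a wide margin at the members. The farthest summit taken in was 407 bp from a gene end (Washc4, both normal lists), and the nearest one left out was 9415 bp from Washc4 (starved 1). The latter belonged to a peak at Aldh1l2, an enzyme of mitochondrial folate metabolism, which all 4 lists called with enrichments of 10.04, 10.04, 6.05 and 5.61. In both normal lists its summit was on the same base, as at Washc4. The nearest peak beyond Washc1 lay 34393 to 34434 bp away, the one beyond Washc2 lay near Marchf8, 75309 to 75357 bp away, and none was closer than 255616 bp to Washc5.

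CACGTG was far more common in promoter windows near USF2 peaks. It was present in 71.5% of the 256 windows with a summit within 1000 bp in all 4 lists, in 37.7% of the 681 windows with one in 1 to 3 lists and in 5.98% of the 31914 windows with none. Called windows were also richer in G and C (median 63% in all 4 lists against 52.7% in none), and the part of base composition in these shares was not tested. Windows of neighbouring starts overlap, so they are not independent. Read the other way, 37.4% of the 195 windows with at least 2 motifs, as at Washc2, had a summit in all 4 lists, against 5.11% of the 2154 windows with exactly 1, as at Washc4 and Washc1. In windows called in all 4 lists, the smallest enrichment had a median of 8.67 (quartiles 6.40 and 11.4) with at least 2 motifs and of 6.36 (5.52 and 8.01) with 1. Washc2, at 16.9, was above the upper quartile of its class, and Washc4, at 6.28, was near the median of its own. As the members were chosen on these enrichments, both places are a description only.

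**Figure D5:**
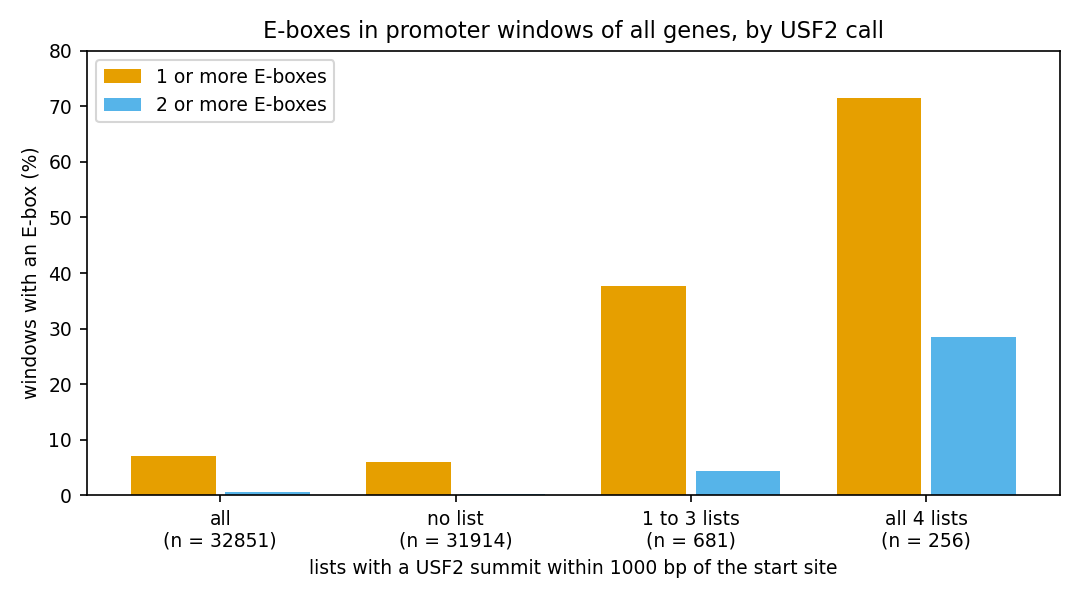
Share of promoter windows of all genes with at least 1 (orange) and at least 2 (blue) CACGTG E-boxes, by the number of lists with a USF2 summit within 1000 bp of the start. The share with at least 1 is 5.98% where no list has a summit and 71.5% where all 4 lists have one; Washc2 and Washc4 are in the latter group, Washc1 in the group of 1 to 3 lists and Washc3 in the group of none.

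The regions most like those of the members were picked by the Euclidean distance between their percentiles of enrichment in the 4 lists, among the 247 regions called in all of them. For Washc2 the closest was the region shared by Washc5 and Nsmce2 (0.911 percentile points). Next were Atp6v0b, of the lysosomal proton pump (0.916), and Nagpa, an enzyme of mannose 6-phosphate tagging (1.08). For Washc5 they were Atp6v0b (0.534), Washc2 (0.911) and the region at Fam118b and Rpusd4 (0.982). All of these are near the top of every list, where percentiles can differ only a little. The members were chosen on these enrichments, so the pairing of Washc2 with Washc5 is a description only. For Washc4 the closest were Cpsf1, a subunit of the mRNA cleavage complex (7.13), and the kinase gene Map2k2 (7.27).

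Genes that act with WASH, and other actin nucleators for comparison, were counted in the same way. Of these 70 genes in 5 lists, 9 had a gene-end peak in both normal lists, 5 in both starved lists and 4 in all 4 lists, against 2.19%, 1.78% and 1.13% of all genes. Without regions with an identical edge in the lists of a condition, 1 of these genes (Igf2r) was left in all 4 lists, against 0.763% of all genes. The CCC complex, which regulates WASH on endosomes, had 5 of 13 members in both normal lists, 3 in both starved lists and 2 in all 4. Those in all 4 were Commd8 (normal enrichments 11.4 and 9.36, starved 7.01 and 7.56) and Commd9 (5.65, 7.93, 8.03 and 8.42). Commd2 (8.16 and 11.6), Commd3 (7.28 and 7.25) and Commd4 (14.2 and 13.2) were called in both normal lists alone, and Ccdc22, a coiled-coil subunit, in both starved lists alone (6.44 and 6.81). The summit at Commd3 was equally within 1000 bp of Bmi1.

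Retromer, retriever and the sorting nexins had 2 of 16 members in both normal lists. Vps26a, a subunit of the retromer core, was called in all 4 lists (16.1, 13.4, 5.09 and 7.38), and Vps35, the retromer subunit that Washc2 binds, in both normal lists alone (6.44 in each), at a site shared with Orc6. Among 13 recycled cargo receptors, Igf2r, the mannose 6-phosphate receptor that retromer returns to the Golgi, was called in all 4 lists (16.3, 13.6, 13.6 and 12.8). Of 13 genes of ARP2/3 and capping protein, which act downstream of WASH, only Arpc5 had a peak (6.47 and 6.84 in the normal lists and 7.38 in starved 2), also at an end of Rgl1. None of the 15 genes of other WASP-family nucleators and the WAVE complex had one in any list. Over all genes, 4.05% were called in at least 1 list. The counts of 1 of 13 for the cargo receptors, 1 of 13 for ARP2/3 and capping protein and 0 of 15 are near this background. Of the 10 partner genes with a peak in any list, 8 were in the promoter table and 7 of these held CACGTG, while of the 60 without a peak 43 were in the table and 5 held it. Over all promoter windows the motif was in 71.5% of those with a summit in all 4 lists. It was in 37.7% of those with one in 1 to 3 lists and in 5.98% of those with none. These shares count single windows, while the partner counts are of genes, which can have several windows. The partner genes with a peak were also not split by number of lists, so the 2 measures are not alike. The partner lists were described by counts alone, and whether the WASH genes differ from them was not tested.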

How the data were processed

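USF2 ChIP-seq peak lists of wild-type MEFs, 2 in normal culture and 2 after glucose starvation, were used as deposited by the authors, 1 list per library. The tools named were MACS2 2.2.7.1, Bowtie2 2.5.1 and deepTools 3.5.1 on build GRCm38, per the submitters' processing notes. Parameters and the use of inputs in calling are not given in the sources used here. Per peak, the deposited values are a fold enrichment ratio, −log10 p, −log10 q, a score (−log10 q times 10, truncated) and the summit offset. The 8 peaks of starved 2 outside the assembled chromosomes were left out.

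Groups follow the sample titles. Gene spans came from RefSeq GRCm38.p6, and a gene was called when a summit lay within 1000 bp of either end. Peaks were merged into regions at an overlap of 1 bp. Ranks are by fold enrichment. The reads k at a summit were recovered as the whole number for which fold = (k + 1)/(background + 1) and the Poisson tail matched −log10 p. All peaks matched within 0.001. Intervals are 95% exact Poisson intervals and cover counting error only. Motifs were searched on both strands of the promoter windows. Python 3.11.15, numpy 2.4.6 and scipy 1.17.1 were used, and the calling, pileup and motif steps were tested on simulated data.

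The members, partner lists and motifs were chosen with earlier results of these data known. All 5 members were named, as were all partner genes with a gene-end peak in both lists of a condition, the genes sharing a member region, and the 3 regions most like each member region of all 4 lists, of which 1 for Washc4 is not reported here. No test was applied, since the members were chosen on these lists.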

Additional observations from a re-analysis of the deposited data

How the results depend on the processing

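The counts of WASH genes called in both starved lists and in all 4 lists stayed within 1.5 times the reported value under each alternative: windows of 500 and 5000 bp, the whole peak in place of the summit, −log10 q of at least 5, the best 825 peaks of each list, summits of at least 10 reads, and each list left out. For a count of 3 this bound still admits the loss of 1 gene. In all 4 lists the count was 2 (Washc2 and Washc5) instead of 3 with −log10 q of at least 5. It was also 2 with summits of at least 10 reads. The shares over all genes were then 0.786% and 0.941%. The count in both normal lists was 2 (Washc2 and Washc5) instead of 4 with −log10 q of at least 5 and also with summits of at least 10 reads, since Washc1 and Washc4 did not pass in both. Over all genes these 2 settings left 1.56% and 1.58%. Without starved replicate 1, Washc1 joined the genes called in all remaining lists, which made 4, against 1.29% of all genes. Leaving out regions with an identical peak edge in the 2 lists of a condition, an alternative added after the data were seen, left 2 WASH genes in all 4 lists without Washc4, and 1 partner gene (Igf2r) instead of 4. The share over all genes was then 0.763%. Ranked by −log10 q, Washc1 in normal 2 was 1362nd instead of 848th, Washc2 in starved 1 was 4th instead of 9th, and Washc5 in starved 2 was 12th instead of 4th, while the other 12 ranks moved by at most 1.5 times. Of the 4 members with a promoter window, 3 had a CACGTG E-box, 2 had GTCACGTG and 4 had CANNTG. Over all windows these shares were 7.15%, 2.25% and 72.3%, so CANNTG is common everywhere. Within the last 150 bases 3 members had CACGTG, for which no share over all windows is given. No paired analysis was possible because the results come from no test and the lists share only a replicate number. With 8 to 10 reads at the summits of Washc1 and of Washc4 in the normal lists, depth limits what can be said of these 2 genes.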
